A study of Drosophila melanogaster with 12 samples.

Results

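The Epsilon class of glutathione S-transferases in the fruit fly *Drosophila melanogaster* is described here through its 10 clustered genes, *GstE1* to *GstE10*. They were taken as the rows of the deposited expression table whose FlyBase identifier pairs with those symbols, and they are 10 of the 15682 genes in the table. RNA was sequenced from males aged 5 to 9 days, in pools of 200 heads, with 2 libraries in each of 6 groups. The groups were G9a mutants at 0 h and after 6 and 12 h on food with 50 mM paraquat, and controls at 0 h and after 6 and 12 h on the same food. The mutants carried *G9a*DD1, an allele of the histone methyltransferase gene *G9a* made by P-element excision and present in the whole fly, and the controls were a precise excision line from the same background, so each genotype is 1 line. The 0 h flies were untreated, and no untreated flies were sampled at 6 or 12 h, so paraquat and elapsed time cannot be told apart.

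Glutathione S-transferases join the tripeptide glutathione to reactive, electrophilic molecules, which makes these more soluble and ready for export from the cell. Paraquat cycles between redox states and produces superoxide, and the damaged lipids that follow break down into aldehydes that these enzymes can take as substrates. In insects the Delta and Epsilon classes have expanded and are known for the detoxification of plant compounds and insecticides. The *Anopheles gambiae* enzyme GSTE2, for example, breaks down DDT. Of the fly enzymes, GstE1 is known to conjugate 4-hydroxynonenal, an aldehyde from peroxidized lipids.

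Values are normalized counts, that is, reads on a gene scaled for library size. The libraries held 19275805 to 41393992 reads on genes, and depth went with time: 32325896 to 41393992 reads at 0 h, 19275805 to 24253605 at 6 h and 21872478 to 24078932 at 12 h. These totals, recovered from the deposited values, run both below and above the range of aligned reads that the study states for its samples. The cause was not tested. The count on the whole *G9a* gene was 3519 to 3700 in the mutants and 2620 to 3087 in the controls. A count over the gene does not separate the deleted sequence from what remains of it, so it checks no label. Neuronal markers summed to 129722 to 158240 normalized counts and none was called in any comparison, while markers of testis, accessory gland and midgut stayed at or below 17.9 summed counts, with the testis gene *Mst84Da* and the midgut gene *Jon25Bii* at 0 in every library. The 4 Malpighian tubule markers (*Uro*, *CapaR*, *Irk3* and *Oatp58Dc*) were not near 0, at sums of 1172 to 1745. Of the 3 that could be tested, 1 was called higher in mutants than in controls at 6 h and 1 at 12 h. In mutants, 1 was called lower at 12 h than at 0 h. The part of this tissue in the values of the transferases was not tested. The 4 eye markers (*ninaE*, *ninaC*, *trp* and *Arr2*) had higher sums in mutants at each time. At 0 h these were 1.84e+06 to 1.87e+06 in mutants and 1.29e+06 to 1.35e+06 in controls. At 12 h they were 1.68e+06 to 1.75e+06 and 1.51e+06 to 1.54e+06. Of the 4, 1 was called higher in mutants at 0 h, 1 was called higher in controls at 12 h than at 0 h, and 1 had a more negative response in mutants at 12 h. The part of the eye in the values of the transferases was not tested. A gene was called where its fold change was at least 1.5 and its limma p, adjusted by Benjamini-Hochberg over the 10530 genes that averaged at least 10 normalized counts, was at most 0.05. Fold changes are on the scale of log2(normalized count + 1). Nothing in the labels says that the duplicate pools were reared apart, so p-values measure the spread between these pools.

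The 10 genes stand side by side on chromosome arm 2R. *GstE10* comes first, on the minus strand, followed on the plus strand by *GstE1*, *GstE2* and *GstE3*, the non-coding genes *CR43687* and *CR43688*, and then *GstE4* to *GstE9* in order of their numbers. The flanking genes are *Idgf5*, which encodes a chitinase-like growth factor, and *imd*, an adaptor of innate immune signalling. Exon lengths run from 734 to 1134 bases, and all but *GstE10* have a single block of exon sequence. Exons overlap those of a neighbour over 2.41% of *GstE1* (with *GstE10*), 1.76% of *GstE10* and 5.08% of *GstE9* (with *imd*), and the library kit does not mark strand, so reads there cannot be assigned to either gene. The members are paralogues and the reads were 30 bases long. How reads that match several of them were counted is not given in the sources used here, so a share of the counts of similar members may be exchanged between them.

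After 6 and 12 h on paraquat, most of the tested members were higher than at 0 h in both genotypes. In the mutants at 6 h against 0 h, 7 of the 9 tested members were called higher and 0 lower, where 8.05% of all tested genes were called higher. In the controls at 6 h against 0 h, 8 were called higher and 0 lower, against 5.68% of all tested genes. By 12 h in the mutants, 6 were called higher than at 0 h (background 12.7%) and 2, *GstE2* and *GstE4*, were called lower (background 10.3%). The controls at 12 h had 8 members higher than at 0 h (background 7.31%) and 1, *GstE2*, lower (background 2.86%). *GstE10* did not reach the minimum level and was left out of this test. Scaling by the median log2 value instead of the deposited size factors shifted the median of all genes in controls by -0.10 at 6 h and at 12 h, so that 480 genes were called higher and 256 lower at 6 h in place of 598 and 168, and 608 and 425 at 12 h in place of 770 and 301. In mutants the shift was -0.050 at 6 h and -0.076 at 12 h. There 766 genes were called higher and 618 lower at 6 h in place of 848 and 547. At 12 h these numbers were 1203 and 1252 in place of 1338 and 1086.

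**Figure D1:**
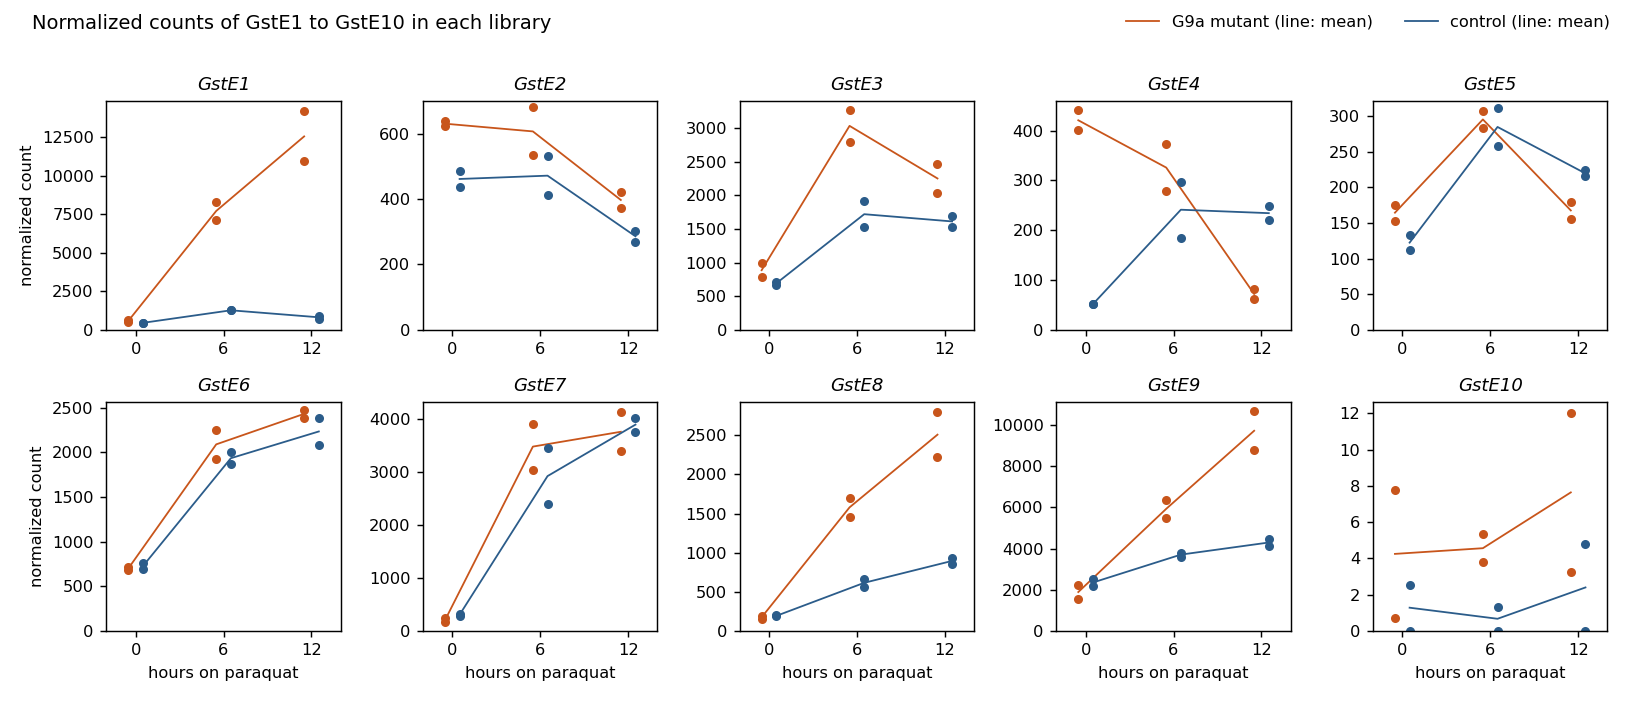
Normalized counts (vertical axes, linear from 0, a separate scale for each gene) of the 10 genes against hours on paraquat. Points are libraries, 2 for each group, and lines join group means, with G9a mutants in orange and controls in blue. *GstE1* reached 10924 and 14174 in the mutants at 12 h, against 884 and 724 in controls, whereas *GstE6* and *GstE7* followed similar courses in both genotypes.

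**Figure D2:**
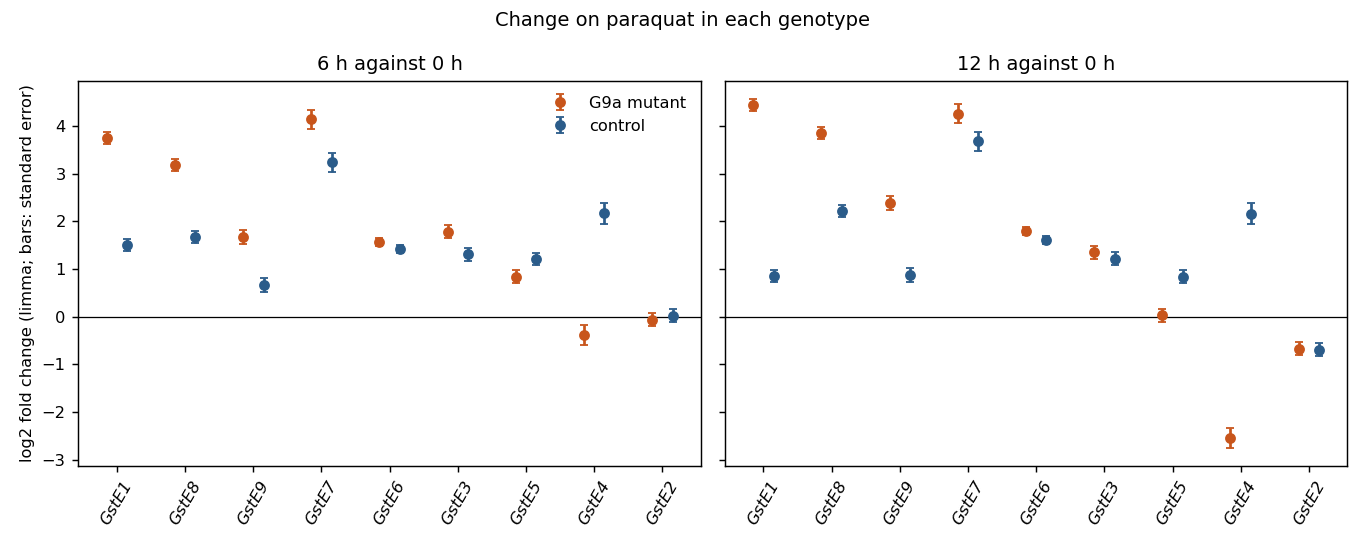
Log2 fold change at 6 h (left) and 12 h (right) against 0 h for the 9 tested members, with G9a mutants in orange left of controls in blue. Points are limma estimates and bars their standard errors. *GstE1*, *GstE8* and *GstE9* changed more in mutants, while *GstE4* was at -2.55 in mutants and 2.17 in controls at 12 h.

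*GstE1*, *GstE8* and *GstE9* were higher in mutants than in controls at both times on paraquat. *GstE1* had 525 and 612 normalized counts in the mutants at 0 h, 8264 and 7152 at 6 h and 10924 and 14174 at 12 h. In the controls it had 436 and 452 at 0 h, 1249 and 1268 at 6 h and 884 and 724 at 12 h. Every mutant library on paraquat lay above every control library. *GstE1* was 13.5-fold higher at 6 h and 21.9-fold higher at 12 h than at 0 h in the mutants (log2 3.76 and 4.45, SE 0.13 for each, adjusted p = 2.7e-09 and 2.2e-10). In the controls it was 2.83-fold higher at 6 h and 1.80-fold higher at 12 h (adjusted p = 1e-05 and 0.00035). The courses then parted: between 6 and 12 h *GstE1* rose in the mutants by 0.69 ± 0.13 on the log2 scale and fell by 0.65 ± 0.13 in the controls (SE, adjusted p = 0.0018 and 0.0074). Mutants exceeded controls by a log2 of 2.61 at 6 h and of 3.96 at 12 h, the second a 15.5-fold excess. At 0 h the difference was not called, at a log2 of 0.35 with a 95% interval of 0.07 to 0.63 and an adjusted p of 0.062, although the libraries did not overlap.

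*GstE8* had 156 and 189 normalized counts in the mutants at 0 h, 1700 and 1458 at 6 h and 2221 and 2795 at 12 h. The controls had 196 and 185 at 0 h, 565 and 663 at 6 h and 931 and 857 at 12 h. The genotypes overlapped at 0 h and were apart at both later times. *GstE8* was 14.4-fold higher at 12 h than at 0 h in mutants and 4.67-fold higher in controls (log2 3.85 and 2.22, SE 0.13 for each, adjusted p = 6.3e-10 and 3.1e-07). Mutants exceeded controls 2.57-fold at 6 h and 2.79-fold at 12 h (adjusted p = 1.1e-05 and 2.7e-06).

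*GstE9* was the most abundant member in untreated heads. Its normalized counts were 1560 and 2209 in the mutants at 0 h, 6381 and 5484 at 6 h and 8781 and 10677 at 12 h, and in the controls 2532 and 2164 at 0 h, 3611 and 3799 at 6 h and 4464 and 4125 at 12 h. As with *GstE8*, the genotypes overlapped only at 0 h. The rise by 12 h was 5.21-fold in mutants and 1.83-fold in controls (log2 2.38 and 0.87, SE 0.15 for each, adjusted p = 8.1e-08 and 0.00079). Mutants exceeded controls 1.60-fold at 6 h and 2.26-fold at 12 h (adjusted p = 0.0038 and 4.7e-05). The 6 h call was lost without the first mutant library of that time, where the log2 difference was 0.57, and the call for controls at 6 h (log2 0.66) was lost without the second control library of 0 h, at 0.55. At 0 h the log2 difference of -0.33 was not called (adjusted p = 0.12), and it passed the threshold without the second mutant library of 0 h, at -0.585.

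The size of the response itself was compared between genotypes as the change in mutants minus the change in controls. At 6 h, 3 members had a larger response in the mutants, against a background of 3.5% of tested genes, and 1 a lower one, against 4.68%. At 12 h there were 3 larger, against 7.26%, and 2 lower, against 8.53%. The larger ones were *GstE1*, *GstE8* and *GstE9* at both times. The difference for *GstE1* was 2.26 ± 0.18 at 6 h and 3.61 ± 0.18 at 12 h on the log2 scale (SE, adjusted p = 1.8e-05 and 1.7e-07). For *GstE8* the difference was 1.51 ± 0.18 and 1.63 ± 0.18 (adjusted p = 0.00024 and 4.7e-05), and for *GstE9* it was 1.01 ± 0.21 and 1.51 ± 0.21 (adjusted p = 0.0069 and 0.0002). The 6 h and 12 h differences share their 0 h libraries and are not separate evidence.

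From 6 to 12 h in the mutants, *GstE1*, *GstE8* and *GstE9* were the 3 members called higher (background 4.43%), and *GstE2*, *GstE4* and *GstE5* the 3 called lower (background 4.69%). All 3 higher calls were lost without the second mutant library of 12 h, where the log2 changes were 0.51, 0.50 and 0.57, and the call for *GstE8* was also lost without the second mutant library of 6 h, at 0.55. In the controls from 6 to 12 h, 2 members were called lower, *GstE1* and *GstE2*, against a background of 1.94%. Both calls were lost without the second control library of 12 h, at log2 changes of -0.51 and -0.63, and that of *GstE2* also without the second control library of 6 h, at -0.53. In mutants the call of *GstE2* was lost without the first library of 6 h, at -0.43, or the first of 12 h, at -0.52. The rise of *GstE8* in controls over the same span, uncalled at 0.54, passed the threshold without the second control library of 6 h, at 0.66.

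The sum of the fat body markers fell from 0 h in both genotypes, while *GstE1*, *GstE8* and *GstE9* rose from 0 h. The 5 fat body markers (*Lsp2*, *Fbp1*, *Fbp2*, *apolpp* and *AkhR*), none of them at 0 in every library, summed to 69914.5 to 90199 normalized counts in the mutants at 0 h, 23549 to 25365 at 6 h and 8876 to 10687 at 12 h. The control sums were 96030 to 101252 at 0 h, 67322 to 86176 at 6 h and 62497 to 64776 at 12 h. Of the 3 markers that could be tested, 2 had a more negative response in the mutants at 12 h. In pooled heads, fewer cells of a type and less RNA of these genes per cell cannot be told apart, so the sum does not measure the tissue. The part of the fat body in the values of the transferases was not tested.

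*GstE7*, *GstE6* and *GstE3* rose in both genotypes. *GstE7* had the steepest rise in controls of all 9 tested members. It had 160 and 237 normalized counts in mutants at 0 h, 3915 and 3048 at 6 h and 3395 and 4127 at 12 h. In controls it had 319 and 288 at 0 h, 2402 and 3446 at 6 h and 4027 and 3766 at 12 h. The genotypes overlapped at 6 and at 12 h. At 12 h it was 19.1-fold higher than at 0 h in mutants and 12.8-fold higher in controls (log2 4.26 and 3.68, SE 0.20 for each, adjusted p = 7.3e-09 and 1.6e-07). The responses were not called different at either time: the log2 difference was 0.90 at 6 h (95% interval 0.29 to 1.51, adjusted p = 0.053) and 0.58 at 12 h (-0.03 to 1.19, adjusted p = 0.15). Both differences passed the threshold without the second mutant library of 0 h, at 1.18 and 0.86, and the one at 6 h also without the second control library of 6 h, at 1.16, and under median centring, at 0.95.

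At 0 h *GstE7* was the 1 member called lower in mutants than in controls, where 5.25% of tested genes were called lower. Its log2 difference was -0.64 ± 0.20 (SE, adjusted p = 0.033). That call did not hold under edgeR (adjusted p = 0.071), DESeq2 (0.068) or reads thinned to the smallest library (0.11), nor without the first or second control library or the first mutant library of 0 h, where the log2 difference ranged from -0.71 to -0.36.

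*GstE6* was not called different between the genotypes in any comparison. In mutants it had 685 and 711 normalized counts at 0 h, 2249 and 1927 at 6 h and 2386 and 2474 at 12 h. The control libraries had 755 and 694 at 0 h, 1867 and 1999 at 6 h and 2383 and 2082 at 12 h. It was 3.48-fold higher at 12 h than at 0 h in mutants and 3.07-fold higher in controls (adjusted p = 7.8e-09 and 1.2e-07). The 95% interval for the log2 difference of the responses at 12 h ran from -0.08 to 0.44.

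*GstE3* was called higher at both times in both genotypes, and its change from 6 to 12 h was called in neither. Its normalized counts were 780 and 992 in mutants at 0 h, 3279 and 2792 at 6 h and 2031 and 2474 at 12 h, and in controls 708 and 672 at 0 h, 1529 and 1911 at 6 h and 1535 and 1689 at 12 h. The mutants lay above the controls in every library at each time, and the excess was called only at 6 h, at 1.77-fold (log2 0.82 ± 0.14, SE, adjusted p = 0.0007). At 12 h the log2 excess was 0.48 (95% interval 0.17 to 0.78), and it passed the threshold without the first mutant library of 12 h, at 0.62. The responses of the genotypes differed by a log2 of 0.47 at 6 h (adjusted p = 0.14) and 0.13 at 12 h (adjusted p = 0.68).

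*GstE4* ran the other way. It had 440 and 401 normalized counts in the mutants at 0 h, 372 and 279 at 6 h and 61.7 and 81.8 at 12 h. In the controls it had 51.6 and 51.0 at 0 h, 297 and 185 at 6 h and 220 and 248 at 12 h. The untreated mutants were above every library of every other group, and the untreated controls below every one. At 0 h *GstE4* was 8.05-fold higher in mutants than in controls (log2 3.01 ± 0.22, SE, adjusted p = 2.3e-06), the 1 member called higher, where 5.04% of tested genes were. It was 5.85-fold lower at 12 h than at 0 h in the mutants and 4.48-fold higher in the controls (log2 -2.55 and 2.17, adjusted p = 1.3e-06 and 1.8e-05), and by 12 h the mutants were 3.26-fold below the controls (adjusted p = 5.3e-05). At 6 h the genotypes overlapped and the log2 difference of 0.46 was not called (adjusted p = 0.13), but it passed the threshold without the first control library of 6 h, at 0.80. The responses differed by a log2 of -2.55 ± 0.30 at 6 h and -4.71 ± 0.30 at 12 h (SE, adjusted p = 0.00021 and 1e-06).

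Antennal markers shared some of these changes and not others. The 4 markers (*Orco*, the olfactory co-receptor, and the odorant-binding proteins *lush*, *Obp83a* and *Obp59a*) summed to 3140 to 3573 normalized counts in the mutants at 0 h, 2564.5 to 2670 at 6 h and 222 to 349 at 12 h. The control sums were 325 to 502 at 0 h, 1856 to 2557 at 6 h and 587 to 694 at 12 h. All 4 were called higher in mutants than in controls at 0 h, lower in mutants at 12 h than at 0 h, and more negative in the mutants in the difference of responses at 12 h. In controls all 4 were called higher at 6 h than at 0 h, as *GstE4* was, but only 1 of the 4 was called higher at 12 h than at 0 h, where *GstE4* was 4.48-fold higher. From 6 to 12 h in controls 2 of the 4 were called lower, while *GstE4* was at a log2 change of -0.0045 (adjusted p = 0.99). None of the 4 was at 0 in every library. Their part in the values of *GstE4* was not tested. Blood cell markers (*Hml*, *NimC1* and *eater*) summed to 325 to 389 in mutants at 0 h, 188 to 299 at 6 h and 374 to 469 at 12 h, and to 1201 to 1324 in controls at 0 h, 446 to 519 at 6 h and 469 to 499 at 12 h. All 3 were called lower in mutants than in controls at 0 h, and lower in controls at 6 and at 12 h than at 0 h. In mutants at 12 h against 0 h, 1 was called higher and 2 lower. Of the 4 glial markers, 2 (*loco* and *moody*) were called higher and 2 (*repo* and *nrv2*) lower in mutants at 12 h against 0 h, and 0 were called in controls. The part of blood cells and glia in the values of the transferases was not tested.

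*GstE5*, the neighbour of *GstE4*, differed in the same direction by less. It had 175 and 153 normalized counts in mutants at 0 h, 283 and 308 at 6 h and 156 and 179 at 12 h. Controls had 133 and 112 at 0 h, 312 and 258 at 6 h and 224 and 215 at 12 h. In mutants the rise at 6 h (1.79-fold, adjusted p = 0.00045) was gone by 12 h, where the libraries overlapped those of 0 h at a log2 change of 0.03 (95% interval -0.27 to 0.32). In controls *GstE5* was still 1.79-fold higher at 12 h than at 0 h (adjusted p = 0.00055). The responses at 12 h differed by a log2 of -0.82 ± 0.19 (SE, adjusted p = 0.007), and at 6 h by -0.37, which was not called (adjusted p = 0.25).

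*GstE2* was the 1 tested member called higher than at 0 h at neither time in either genotype. It had 624 and 640 normalized counts in mutants at 0 h, 681 and 535 at 6 h and 374 and 421 at 12 h, and in controls 487 and 437 at 0 h, 412 and 532 at 6 h and 303 and 270 at 12 h. At 6 h the libraries overlapped those of 0 h in both genotypes, and at 12 h they lay below. The fall by 12 h was 1.59-fold in mutants and 1.61-fold in controls (adjusted p = 0.0016 and 0.0026), and the one in mutants was no longer called without the first mutant library of 12 h, at a log2 of -0.58. The responses at 12 h differed by a log2 of 0.02, with a 95% interval of -0.41 to 0.45.

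*GstE10* was at the edge of detection. It had 12 and 1 reads in the mutants at 0 h, 3 and 5 at 6 h and 3 and 10 at 12 h, and in the controls 4 and 0 at 0 h, 1 and 0 at 6 h and 4 and 0 at 12 h. Summed, that is 34 reads in the 6 mutant libraries and 9 in the 6 control libraries. The limit that a count of 0 allows is 3 reads, or 2.51 to 3.72 normalized counts in the 3 control libraries without a read. This limit covers counting error only. At 6 h both mutant libraries were above both control libraries, at 3.77 and 5.35 normalized counts in mutants and 1.33 and 0 in controls, while at 0 and 12 h the genotypes overlapped. In a limma fit with no minimum level, over 14784 genes, *GstE10* was called in 0 of the 11 comparisons, with adjusted p between 0.24 and 0.91 and 0 unadjusted p below 0.05 (lowest 0.096).

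Between genotypes at 6 h, 4 members were called higher in mutants, *GstE1*, *GstE3*, *GstE8* and *GstE9*, against 6.53% of tested genes, and 0 lower. At 12 h, 3 were called higher, *GstE1*, *GstE8* and *GstE9*, against 9.46%, and 1, *GstE4*, lower, against 10.2%. Along the chromosome, the members with a larger response in mutants stood at the ends of the run of tested genes, and those with a lower response in its middle.

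**Figure D3:**
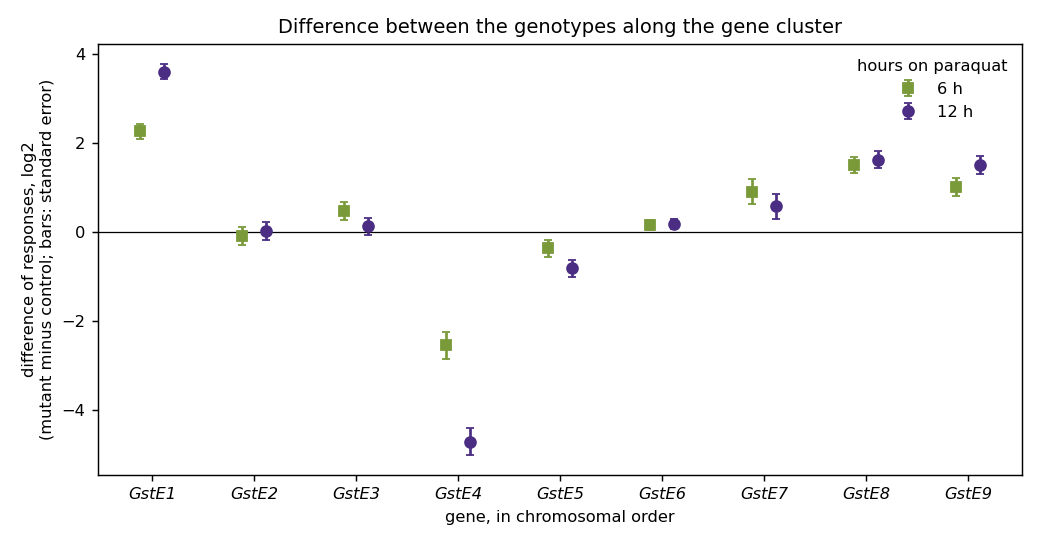
Difference of the log2 responses to paraquat (mutant minus control, vertical axis) at 6 h (squares) and 12 h (circles) for the 9 tested members in chromosomal order. Bars are standard errors. At 12 h *GstE1* was at 3.61, *GstE4* at -4.71, *GstE5* at -0.82, *GstE8* at 1.63 and *GstE9* at 1.51.

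The genes on either side were measured as well. *Idgf5*, next to *GstE10*, had 127 and 161 normalized counts in mutants at 12 h, against 233 and 322 at 0 h, and 415 and 405 in controls at 12 h, against 337 and 321 at 0 h. Its responses at 12 h differed by a log2 of -1.25 ± 0.24 (SE, adjusted p = 0.0019). The gene *imd*, next to *GstE9*, had 664 and 835 in mutants at 12 h, against 468 and 502 at 0 h, and 547 and 522 in controls at 12 h, against 469 and 420 at 0 h. Its responses at 12 h differed by 0.35, which was not called (adjusted p = 0.13). The non-coding genes within the cluster had at most 7.96 normalized counts in any library and were not tested.

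Levels of different members were compared per kb of exon. In untreated heads *GstE9* ranked first in both genotypes, at 2391 ± 582 normalized counts per kb in mutants and 2980 ± 330 in controls (SD, n = 2 each). *GstE1* ranked 5 in untreated mutants and 4 in untreated controls. At 12 h it ranked 1 in mutants, at 15101 ± 2765 per kb, and 5 in controls, at 968 ± 136. In the mutants at 12 h *GstE9* was at 12346 ± 1702, and the SDs of the 2 genes overlapped. Within each of these 2 libraries *GstE1* was above *GstE9*, at 35.3% and 37.2% of the per-kb sum of the 10 genes against 29.9% and 29.5%. In controls at 12 h the leading members were *GstE9*, at 5449 ± 304, and *GstE7*, at 5094 ± 241, whose SDs also overlapped. Within each of those libraries *GstE9* was above *GstE7*, at 29.9% and 29.6% of the sum against 27.8% in each.

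The sum over the 10 clustered genes, which leaves out *GstE11* to *GstE14* and so is not that of the whole class, was followed too. It stood at 7030 ± 925 normalized counts per kb in mutants at 0 h, 31040 ± 3635 at 6 h and 41586 ± 6086 at 12 h (SD, n = 2). The control sums were 6708 ± 505 at 0 h, 16643 ± 1641 at 6 h and 18317 ± 881 at 12 h. The genotypes overlapped at 0 h and were apart at 6 and 12 h. The make-up of the sum changed with it: *GstE1* gave 9.75% of it in mutants at 0 h, 29.9% at 6 h and 36.2% at 12 h, and 8.0% in controls at 0 h, 9.14% at 6 h and 5.27% at 12 h. *GstE7* gave 11.8% at 12 h in mutants and 27.8% in controls, and *GstE9* gave 29.7% in each.

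**Figure D4:**
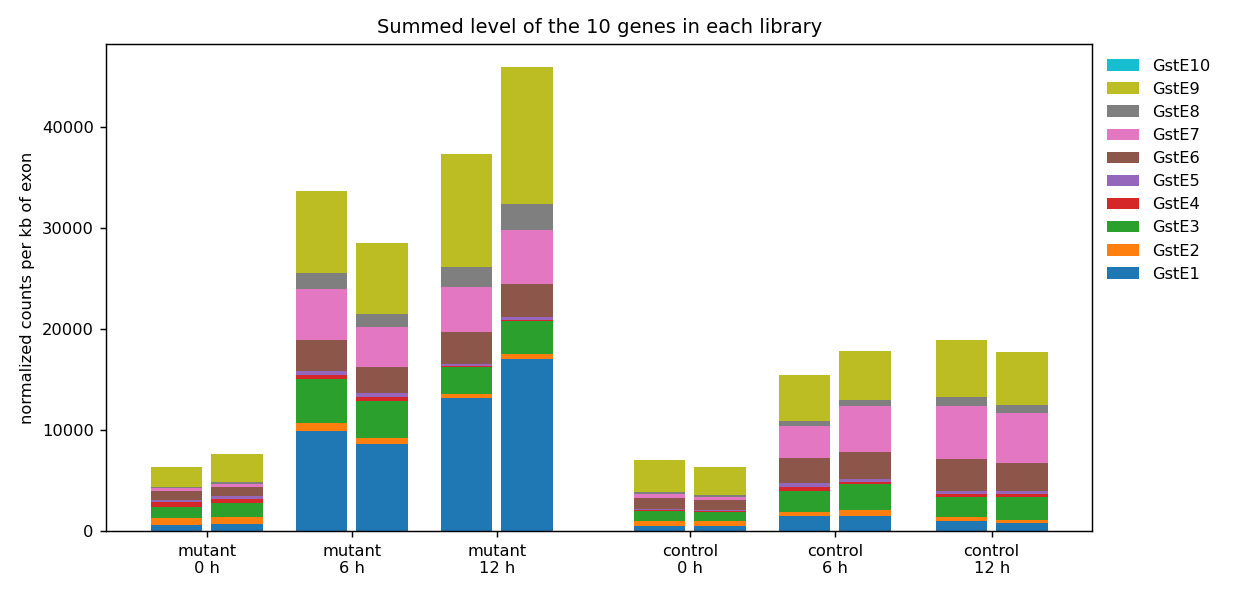
Normalized counts per kb of exon for each of the 10 genes, stacked from 0, in the 12 libraries, with the 6 mutant libraries on the left and the 6 control libraries on the right. The mutant libraries at 12 h reach 37282 and 45889, against 18940 and 17694 in controls, and *GstE1* (lowest block) takes 35.3% and 37.2% of them in mutants, against 5.62% and 4.92% in controls.

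Across the 12 libraries the members fell into loose groups, given as a description since libraries of a group share their treatment and every value its library's scaling. *GstE6* and *GstE7* had a Pearson r of 0.99 on the log2 scale, and *GstE8* and *GstE9* one of 0.98. *GstE1* was closest to *GstE9* (0.91) and *GstE8* (0.90). *GstE4* lay between -0.22 (*GstE9*) and 0.65 (*GstE5*), and *GstE2* between -0.45 (*GstE7*) and 0.33 (*GstE4*).

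The 5 genes outside the class whose pattern over the 12 libraries was most like that of *GstE1* were *Ssrp*, a histone chaperone subunit (r = 0.993), *CG11893* (0.989), *Su(var)2-HP2*, a partner of a heterochromatin protein (0.988), the gene with the identifier FBgn0039208 (0.987) and *Smg6*, an endonuclease of nonsense-mediated decay (0.986). Likeness here is of pattern, and levels and fold changes differed. *Ssrp* had 1643 and 1750 normalized counts in mutants at 12 h, against 624 and 596 at 0 h, and 760 and 742 in controls at 12 h, against 592 and 590 at 0 h. *CG11893* had 2472 and 2543 in mutants at 12 h, against 205 and 240 at 0 h, and 293 and 322 in controls at 12 h, against 140 and 189 at 0 h.

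The other 4 genes of the Epsilon class lie outside the cluster on the same arm, and they did not share a course. *GstE11* had 807 and 813 normalized counts in mutants at 12 h, against 144 and 195 at 0 h, and 534 and 531 in controls at 12 h, against 366 and 268 at 0 h. It was lower in mutants than in controls at 0 h (log2 -0.90, adjusted p = 0.0011) and had a larger response in mutants at 12 h (2.83-fold, adjusted p = 0.00025). *GstE12* and *GstE14*, the enzyme known as Noppera-bo that acts in ecdysteroid synthesis, had lower responses in mutants at 12 h, by -0.70 and -0.88 on the log2 scale. *GstE14* was already called higher in mutants at 0 h (log2 0.64, adjusted p = 0.00023), and at 12 h its difference of -0.24 was not called. *GstE12* had 5699 and 6351 normalized counts in mutants at 0 h, above those of *GstE9*, and 4416 and 4586 at 12 h. Controls had 5275 and 5173 at 0 h and 6064.5 and 6630 at 12 h. *GstE13* was called in none of the 11 comparisons.

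The rest of the pathway was followed through lists of genes, described by counts and medians of the log2 difference of responses at 12 h, beside a median of 0.02 over all tested genes. Of the 22 transferase genes of other classes, 21 were tested, and 5 had a larger and 4 a lower response in mutants (median 0.10), where 7.26% of all tested genes had a larger and 8.53% a lower one, the background for each of the lists that follow. The larger ones were *GstT1*, *GstT2*, *GstD3*, *GstD2* and *GstD1*, led by *GstT1* at 1.67, and the most negative was *GstD8* at -2.67. The counts of *GstD8* were low, at 33.0 and 35.3 in mutants at 0 h and 18.4 and 6.02 at 12 h. Controls had 15.3 and 22.6 at 0 h and 35.9 and 45.4 at 12 h. In the mutants at 12 h, 11 of these 21 genes were called higher than at 0 h and 4 lower (background 12.7% and 10.3%), and in the controls 10 were called higher and 0 lower (background 7.31% and 2.86%). *GstD2*, of the Delta class, was at a log2 change of 7.24 in mutants and 6.27 in controls.

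Among the 5 genes of glutathione supply, *Gclm*, the modifier subunit of the rate-limiting ligase, had a larger response in mutants (log2 1.37 ± 0.13, SE, adjusted p = 1.8e-05), and *Ggt-1*, a gamma-glutamyl transferase, a lower one (-0.64). The catalytic subunit *Gclc* was at a log2 change of 0.66 in mutants at 12 h against 0 h, which was called, and 0.54 in controls, which was not. At 6 h its response was called larger in mutants, with means of 5125 normalized counts in mutants and 3087 in controls. The list's median at 12 h was 0.40. Of 8 regulators, *kay*, the fly Fos, and *Keap1*, which restrains the stress factor encoded by *cnc*, had larger responses in mutants, at 0.90 and 0.72, and 0 had lower ones (median 0.32). For *cnc* itself the difference was 0.28, below the fold threshold.

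A list of superoxide, peroxide and thioredoxin enzymes, which includes the superoxide dismutases *Sod1* and *Sod2*, was tested for 11 of 12 genes. Of these, 5 had larger responses in mutants and 0 lower ones (median 0.50). The larger ones were the peroxiredoxins *Prx6b* at 2.24 and *Prx6c* at 1.96, the glutathione peroxidase homologue *Gtpx*, catalase (*Cat*) at 0.63 and the thioredoxin *Trx2* at 0.61. Neither superoxide dismutase was called in this difference. Of 6 phase I oxidases, which prepare molecules for conjugation, 0 had larger and 3 lower responses in mutants at 12 h (median -0.83): *Cyp6w1* at -2.90, *Cyp6g1*, known from insecticide resistance, at -2.56, and *Cyp6a2* at -1.09. At 6 h the list was split, with 2 larger (*Cyp12d1-p* and *Cyp28d1*, background 3.5%) and 2 lower (*Cyp6g1* and *Cyp6a2*, background 4.68%). *Cyp6a8* was called higher in mutants than in controls at 0, 6 and 12 h. Of 5 transporters of the conjugate export list, 1 had a larger response in mutants, *Mrp4* at 1.62. Another 1 had a lower one, *Mdr65*, an efflux pump of the blood-brain barrier, at -1.62 (median -0.49). *MRP*, *Mdr49* and *Mdr50* were not called in this difference.

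**Figure D5:**
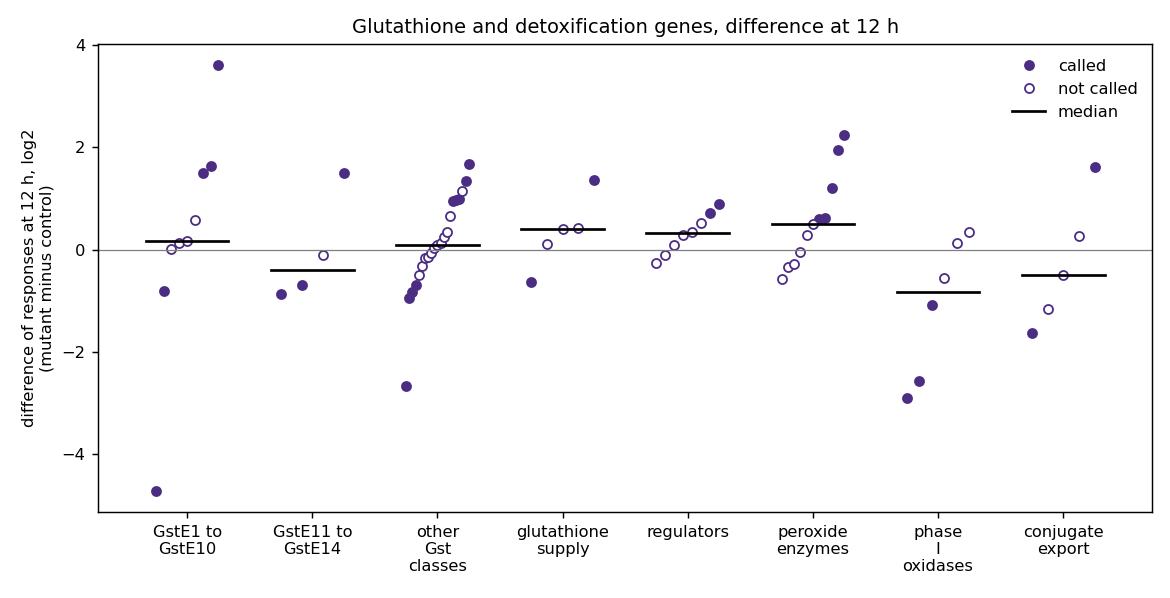
Difference of the log2 responses at 12 h (mutant minus control, vertical axis) for each tested gene of the Epsilon cluster, the other Epsilon genes and 6 further lists. Filled points were called, open points were not, and the bar is the median of the list. The clustered genes run from -4.71 (*GstE4*) to 3.61 (*GstE1*), a wider range than in any other list shown.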

How the data were processed

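Total RNA from pools of 200 male heads, isolated by freezing, vortexing and sieving, was sequenced in 12 libraries (2 for each of 6 groups, taken from the sample titles). The authors aligned 30-base single-end reads with BWA to BDGP 5, counted them per gene with HTSeq and divided by DESeq size factors. The deposited table therefore holds normalized counts (a signal, not raw counts) for 15682 genes. All 188184 values are whole multiples of the value of 1 read within 0.01 reads (100% of values), so reads were recovered. The authors' 4 tables of DESeq comparisons hold means, fold changes (ratio), log2 fold changes, p-values and adjusted p-values, and were not used.

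Genes that averaged 10 normalized counts or more were tested with limma 3.58.1 (R 4.3.3) on log2(count + 1), with 6 group means, an intensity trend, 6 residual degrees of freedom and Benjamini-Hochberg adjustment over 10530 genes, in 11 comparisons. The scripts were tested on simulated data. An exact permutation test of 2 against 2 libraries cannot give a p below 0.333 and was not used. Within each group, duplicates differed beyond sampling noise (chi-square per degree of freedom 4.33 to 19.0). Alternatives were edgeR 4.0.16 and DESeq2 1.42.0 on recovered reads, TMM and median centring, pseudocounts of 0.5 and 5, other minimum levels, thinned reads, fits on the libraries of a comparison alone, a replicate block, and each library left out.

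Symbols (15002 of 15682 identifiers), exon lengths and gene order came from the Ensembl 115 annotation of BDGP 6, and no coordinates are given because the builds differ. All 10 members are named, with *GstE11* to *GstE14*, the 5 genes most like *GstE1* by Pearson r, and up to 4 called genes of each list, beyond which *GstD1*, *GstD2*, *Gclc*, *cnc*, *Trx2* and the neighbouring genes were named after their values were seen. Members, lists and tests were chosen with earlier results of these data known. Sequence comparisons of the members and their promoters were not run, as no sequence was used here.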

Additional observations from a re-analysis of the deposited data

Results flagged for a closer look

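The response to paraquat, mutant minus control on the log2 scale, differed between the genotypes for *GstE1*, at 2.26 at 6 h and 3.61 at 12 h (limma, called at both times). For *GstE8* the difference was 1.51 at 6 h and 1.63 at 12 h. For *GstE9* it was 1.01 at 6 h and 1.51 at 12 h. For *GstE4* it was -2.55 at 6 h and -4.71 at 12 h, and this gene already differed between untreated mutants and controls. For *GstE5* it was -0.82 at 12 h. With 2 libraries in each group, no library could be tested for standing apart from its group.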

How the results depend on the processing

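Of 99 fold changes of single members, 59 were called. None of the 59 changed direction under the 11 alternatives or with any of the 12 libraries left out, 10 lost their call under some setting and 6 uncalled ones gained it. The 13 that changed direction were uncalled, with a log2 size of at most 0.13. Median centring gave -0.049 for *GstE5* in mutants at 12 h against 0 h and -0.078 for *GstE2* in controls at 6 h against 0 h, thinned reads gave -0.031 and -0.047, and median centring took the call of *GstE9* in controls at 6 h, at 0.56. The number of members called between mutants and controls at 0 h was 2, and 1 under edgeR, DESeq2 and thinned reads. With 1 library left out it was 1 to 3, while the number from 6 to 12 h was 3 to 6 in mutants and 0 to 2 in controls. For the uncalled changes that reversed with 1 library left out, the lowest and highest values were -0.24 to 0.11 for *GstE2* in mutants at 6 h against 0 h, -0.16 to 0.21 for *GstE2* in controls at 6 h, -0.27 to 0.096 and -0.065 to 0.11 for its difference of responses at 6 and 12 h, -0.047 to 0.30 for the difference of responses of *GstE3* at 12 h, -0.25 to 0.075 for *GstE3* and -0.35 to 0.34 for *GstE4* in controls from 6 to 12 h, -0.074 to 0.13 for *GstE5* in mutants at 12 h, -0.078 to 0.19 for *GstE5* between genotypes at 6 h, -0.11 to 0.0078 and -0.0037 to 0.22 for *GstE6* between genotypes at 0 and 6 h, and -0.065 to 0.30 for *GstE7* in mutants from 6 to 12 h and -0.20 to 0.084 between genotypes at 12 h. The cause of these shifts was not tested.

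The replicate numbers mark no shared batch in the labels, and deviations of same-numbered libraries correlated between -0.57 and 0.45, above 0 in 9 of 15 pairs of groups. With the replicate block, the difference for *GstE1* at 12 h was 3.61, and no count of members called changed by over 1.5 times. With 2 libraries a group and 0 h libraries read more deeply than later ones, the precision for small differences is low, and *GstE10* was tested only in the fit with no minimum level.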
